A study of Homo sapiens with 4 samples.

Results

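RGS2, RGS4, RGS20, EDN1, S1PR1, SPHK1, P2RY2, F2R, F2RL1 and RAPGEF3 are genes of G-protein signalling, described here across 2 human bladder cancer cell lines treated with protodioscin, a steroidal saponin of plants such as yam and fenugreek. All 10 were found by Ensembl gene ID among the 60617 genes of the expression table. They were selected from readouts of these libraries, since RGS4, EDN1 and S1PR1 were lower with protodioscin in T24 cells and RAPGEF3 and P2RY2 were lower in both lines. The differences between treated and untreated cells are therefore given as descriptions without a test. The groups were T24 cells with 60 µM protodioscin for 6 h, untreated T24 cells, 5637 cells with 70 µM protodioscin for 6 h and untreated 5637 cells, with 1 library each. Doses follow the sample titles, and the treatment protocol writes the same numbers in millimolar. T24 and 5637 are established lines from urinary bladder carcinomas. Both were grown in RPMI medium with serum, the labels name no vehicle for the untreated cells, and the dose differed between the lines. Levels are FPKM, that is, fragments divided by transcript length in kilobases and by library size, and there was no replicate within a group.

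G-protein-coupled receptors switch on heterotrimeric G proteins when a ligand binds, and the alpha subunit signals until it hydrolyses its GTP. RGS proteins bind the active alpha subunit and speed up this hydrolysis, so they shorten the signal. In epithelia and in tumours derived from them, such receptors are activated by peptides such as endothelin, by the lipid sphingosine 1-phosphate (S1P), by extracellular ATP and UTP and by proteases. Many of these inputs lead to calcium release through phospholipase C, to cyclic AMP or to the small GTPase RAP1.

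Taken from the spacing of low values, depth relative to untreated T24 was 1.28 in treated T24, 1.19 in treated 5637 and 1.43 in untreated 5637, and 1 read on a transcript of 1 kb was worth 0.0171 to 0.0246 FPKM. The summed FPKM of 8 urothelial and epithelial markers was 1534 in treated T24 and 1904 in untreated T24, and 2609 in treated 5637 and 2945 in untreated 5637. The basal keratin gene KRT5 was at 0 in both T24 libraries, against 283 FPKM in treated 5637 and 331 FPKM in untreated 5637. EPCAM, CDH1 and TP63 were also lower in T24, at no more than 2.35, 0.016 and 0.0232 FPKM. KRT7, KRT8, KRT18 and GATA3 were instead well above 1 FPKM in both lines. GATA3 had 17.4 and 17.6 FPKM in treated and untreated T24, and 17.0 and 14.5 FPKM in treated and untreated 5637. KRT7 was the largest part of the T24 sums, at 782 and 1073 FPKM in treated and untreated cells. The sum of 4 mesenchymal markers was 1534 and 1655 FPKM in treated and untreated T24, and 485 and 572 FPKM in treated and untreated 5637. Most of the T24 sum was the fibronectin gene FN1, at 1419 and 1530.3 FPKM in treated and untreated T24, against 191 and 235 FPKM in treated and untreated 5637. CDH2 was also higher in T24, at 45.6 and 48.5 FPKM in treated and untreated T24 and 26.7 and 33.4 FPKM in treated and untreated 5637. So was ZEB1, at 8.38 and 8.46 FPKM in treated and untreated T24 and 0.179 and 0.0702 FPKM in treated and untreated 5637. Only the intermediate filament gene VIM ran the other way, at 61.4 and 68.0 FPKM in treated and untreated T24 and 267 and 304 FPKM in treated and untreated 5637. Because EDN1 and S1PR1 are known as abundant genes of endothelium, 8 endothelial markers were summed, and they gave 1.91 FPKM in treated T24 and 2.59 in untreated T24, and 0.201 in treated 5637 and 0.246 in untreated 5637. Among these markers, 1 of 8 reached 1 FPKM in any library, the cadherin gene CDH5, at 0.777 FPKM in treated T24 and 1.57 FPKM in untreated T24. The highest of the other endothelial markers was ERG, at 0.479 FPKM in treated T24 and 0.280 FPKM in untreated T24. TIE1 had 0.424 and 0.328 FPKM in treated and untreated T24, and PECAM1 had 0.206 and 0.381 FPKM. VWF was at most 0.0293 FPKM in any library. As these are bulk libraries, fewer cells expressing a gene and less RNA per cell cannot be told apart.

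The sequences upstream of RGS4, EDN1, S1PR1 and RAPGEF3, the 4 genes with the largest decreases in T24, are shown because these genes moved in the same direction there. They come from RefSeq on GRCh38.p14, in which 7 of the 10 genes had a promoter entry. Within the 250 bases before the RefSeq start site, only the stretch outside annotated exons is printed, from 5′ to 3′ on the gene's strand. Capitals mark matches to 6 motifs searched on both strands. The letters TGACG are the core of the cyclic AMP response element. AP-1 was searched as TGANTCA. The motif bound by GATA factors was searched with the letters GATAAG. The motif of TEAD factors was read as GGAATG. SP1 was searched as GGGCGG. The box near many start sites known as the TATA box was searched with the letters TATAAA. Overlapping matches were allowed.
RGS4, chr1:163069015-163069144, plus strand: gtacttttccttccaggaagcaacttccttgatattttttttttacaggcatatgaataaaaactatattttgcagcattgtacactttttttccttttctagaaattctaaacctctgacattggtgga
EDN1, chr6:12290111-12290360, plus strand: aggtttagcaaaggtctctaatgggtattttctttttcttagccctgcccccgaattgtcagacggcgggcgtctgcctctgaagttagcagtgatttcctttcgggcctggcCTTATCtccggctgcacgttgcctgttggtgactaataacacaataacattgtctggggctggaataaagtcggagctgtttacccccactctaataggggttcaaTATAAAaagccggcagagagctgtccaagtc
S1PR1, chr1:101236769-101236864, plus strand: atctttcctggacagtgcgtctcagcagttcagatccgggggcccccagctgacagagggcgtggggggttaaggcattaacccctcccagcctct
RAPGEF3, chr12:47758462-47758550, minus strand: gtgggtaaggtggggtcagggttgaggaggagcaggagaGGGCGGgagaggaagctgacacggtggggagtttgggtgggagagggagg

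The EDN1 window held a GATA match 137 to 132 bases before the start site and a TATA box match 31 to 26 bases before it. The RAPGEF3 stretch held an SP1 match 50 to 45 bases before the start site, and the exonic part of that window, not printed, held a GATA match. The RGS4 stretch held none of the 6 motifs, although the exonic part of its window held the cyclic AMP response element core. The S1PR1 window held no match. Over all 35116 upstream windows of the same length, 42.6% held the SP1 motif, 21.2% the cyclic AMP response element core, 11.9% the TEAD motif, 10.7% the TATA box, 6.57% the AP-1 motif and 5.65% the GATA motif. Apart from the GATA motif, found in the EDN1 and RAPGEF3 windows, no motif was found in more than 1 of these 4 windows. The RGS4, S1PR1 and RAPGEF3 start sites were inside the GENCODE gene spans. RGS4 had 4 RefSeq windows and EDN1 and RAPGEF3 had 3 each, of which 1 is shown, and S1PR1 had 1. These matches describe letters and not binding.

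RGS4, EDN1 and S1PR1 had the largest decreases among the 10 genes in treated T24, and in 5637 the same 3 genes differed by 0.22 or less in log2(FPKM + 1). RAPGEF3 and P2RY2 were lower in the treated library of both lines. Counting a gene as lower at a difference of -0.5 or less in log2(FPKM + 1), which is a fold of 1.41, 4 of 10 genes were lower in T24 (RGS4, EDN1, S1PR1 and RAPGEF3), where 2.23% of the 12193 genes compared were lower. In 5637, 1 of 10 genes was lower (P2RY2), where 1.11% of 12635 genes were lower. At 0.5 or more there were 0 of 10 in T24, against 1.03% of all genes, and 0 of 10 in 5637, against 1.01% of all genes. Nothing is read from these shares, because the genes were selected on these differences. Near the limit, P2RY2 in T24 at -0.44 and RAPGEF3 in 5637 at -0.49 were just outside, and P2RY2 in 5637 at -0.54 was just inside. The T24 count was 2 with a pseudocount of 5, and the 5637 count was 2 with a pseudocount of 0.1 and 0 with a pseudocount of 5. All 10 genes reached 1 FPKM in at least 1 library of each line and so were compared in both. The median difference of the 10 was -0.36 in T24, where all genes had 0.025, and -0.040 in 5637, where all genes had 0.043.

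**Figure D1:**
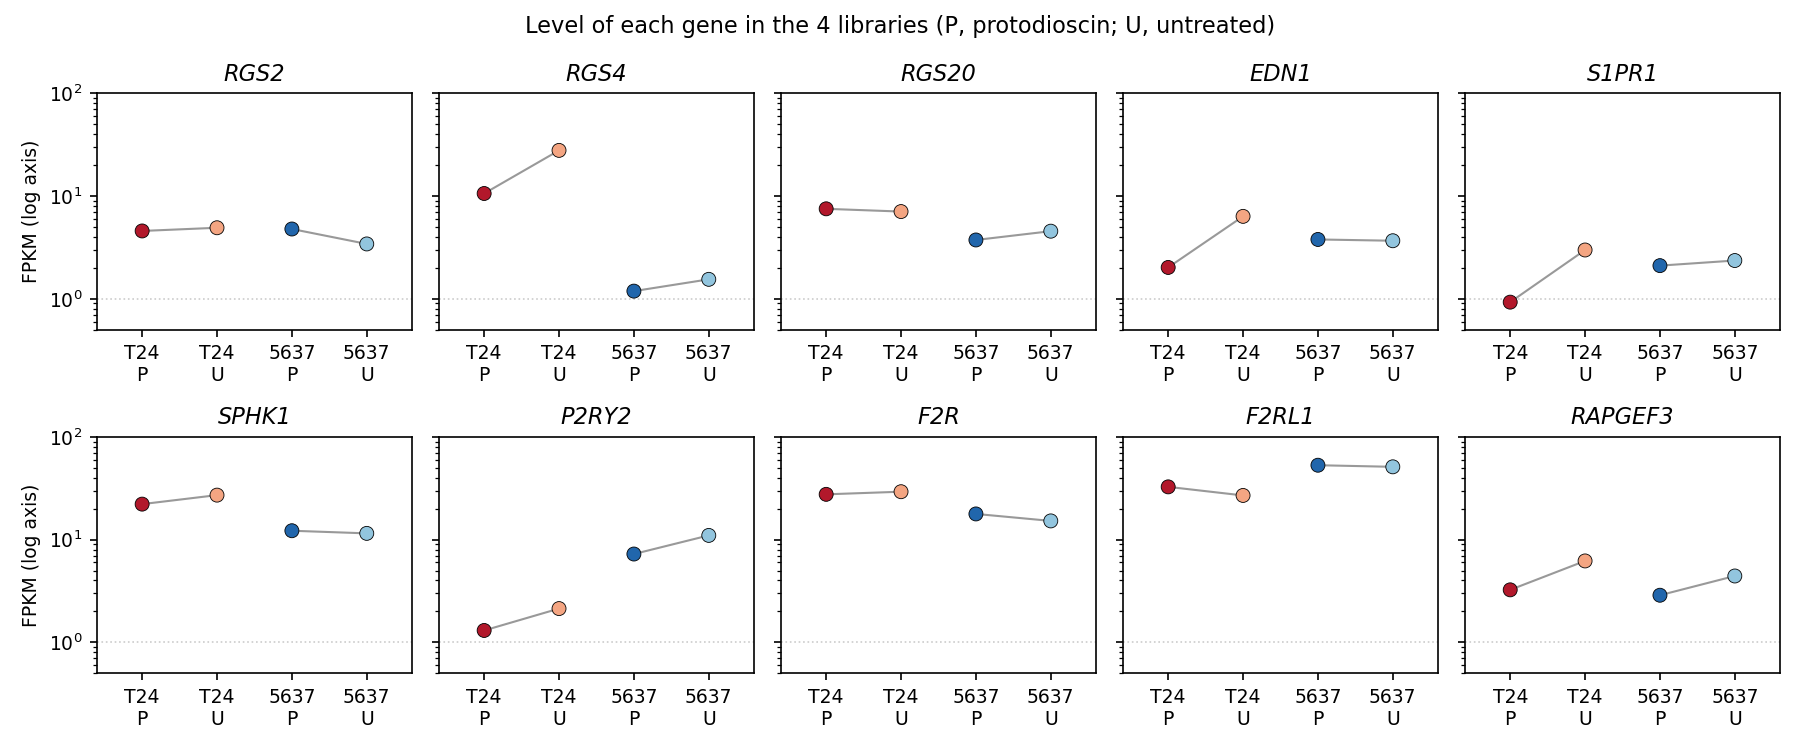
Level of each of the 10 genes in FPKM on a log axis, 1 point per library; within a line the protodioscin library (P) is left of the untreated library (U), and a line joins them. RGS4, EDN1 and S1PR1 drop in treated T24 and differ less in 5637, where RGS4 is also lower with treatment, and P2RY2 and RAPGEF3 are lower with treatment in both lines.

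Among the regulators, RGS4 (ENSG00000117152, chr1:163068775-163076802, GRCh38), which acts on Gi and Gq alpha subunits, had 10.6 FPKM in treated T24 and 27.9 FPKM in untreated T24. In 5637 it had 1.19 FPKM in treated cells and 1.55 FPKM in untreated cells. The T24 difference of -1.32 was the 10th lowest of all genes compared and the 2nd lowest among the 9964 that shared no same-strand exon with any other gene, whereas the 5637 difference was -0.22. At this low level the 5637 difference moved with the processing. It was -0.36 with a pseudocount of 0.1, -0.34 with TPM scaling and -0.081 with a pseudocount of 5. From the worth of 1 read and the length of the principal transcript, the T24 values stand for about 886 read pairs in treated cells and 1817 in untreated cells, and the 5637 values for about 92 and 144 read pairs in treated and untreated cells.

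RGS2, a regulator that prefers Gq, had 4.58 FPKM in treated T24 and 4.92 FPKM in untreated T24, a difference of -0.09. In 5637 it had 4.78 FPKM in treated cells and 3.42 FPKM in untreated cells, a difference of 0.39, which was the largest increase among the 10 genes in either line. RGS20, a regulator of the Gi class member Gz, had 7.52 FPKM in treated T24 and 7.07 FPKM in untreated T24. In 5637 RGS20 had 3.74 FPKM in treated cells and 4.56 FPKM in untreated cells. Neither RGS2 nor RGS20 thus followed RGS4 in T24.

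RGS4 took up 12.6% of the summed FPKM of the 21 RGS genes in treated T24 and 27.3% in untreated T24, where it was the most abundant of them. In treated T24 it was the 4th most abundant, and RGS3 was first at 18.2 FPKM. The other RGS genes together had 73.5 FPKM in treated T24 and 74.2 FPKM in untreated T24, so the family's lower sum in treated cells was nearly all RGS4. In 5637 RGS4 made up 2.59% of the family in treated cells and 3.22% in untreated cells, and RGS19 was first in both. Of the 18 other RGS genes, 5 were compared in T24 and 6 in 5637, with 0 past 0.5 in either direction and medians of -0.011 and -0.084.

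**Figure D2:**
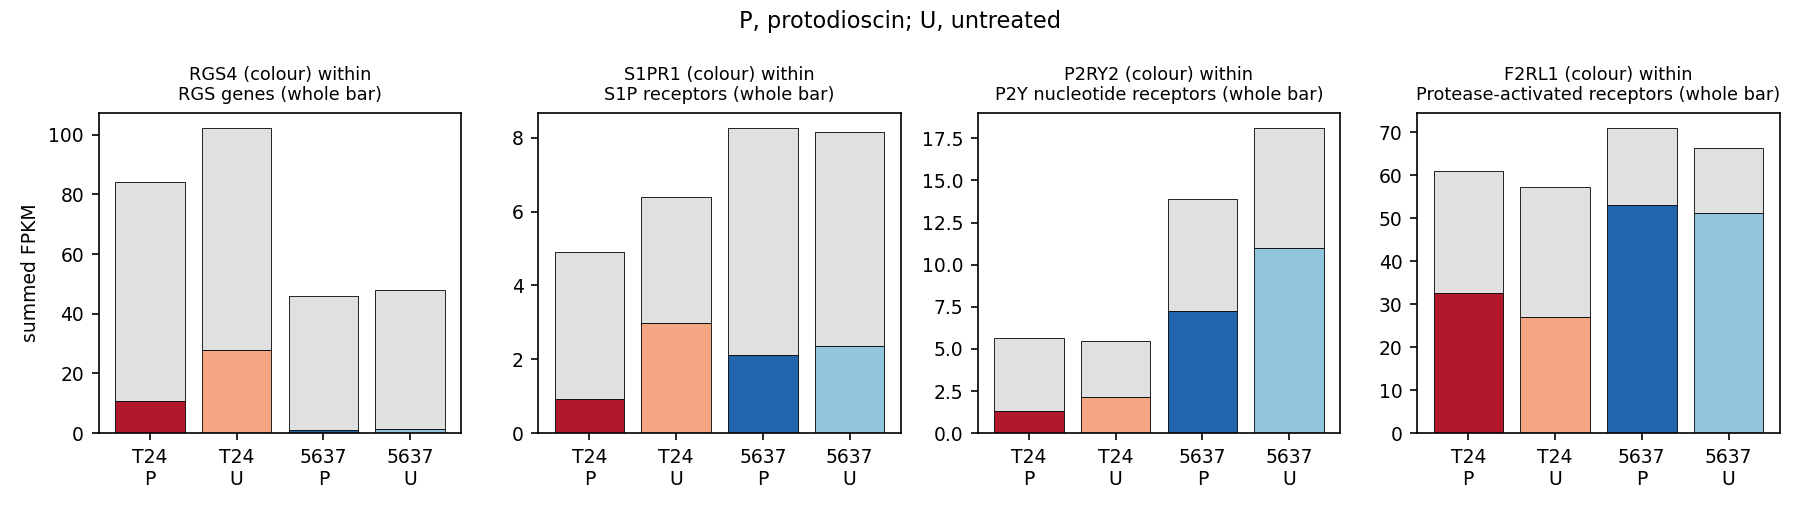
Summed FPKM of 4 gene families in each library (whole bar) with the part of 1 gene in colour: RGS4 in 21 RGS genes, S1PR1 in 5 S1P receptors, P2RY2 in 8 P2Y receptors and F2RL1 in 4 protease-activated receptors; P is protodioscin and U untreated. The coloured part of RGS4 is 10.6 FPKM in treated T24 and 27.9 in untreated T24, while the grey remainder is 73.5 and 74.2.

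EDN1 (ENSG00000078401, chr6:12290363-12297194) encodes the precursor of endothelin-1, a secreted peptide that acts on the receptors EDNRA and EDNRB. It had 2.02 FPKM in treated T24 and 6.35 FPKM in untreated T24, against 3.78 FPKM in treated 5637 and 3.68 FPKM in untreated 5637. Treated T24 had the lowest and untreated T24 the highest of the 4 values. The T24 difference of -1.28 was the 11th lowest of all genes and the 3rd lowest without exon-sharing genes, and the T24 levels stand for about 107 read pairs in treated cells and 263 in untreated cells. It was -1.61 with a pseudocount of 0.1 and -0.69 with a pseudocount of 5. In 5637 the difference was 0.03, and it was between -0.026 and -0.00083 with TPM, median-ratio or quantile scaling, so no direction is given for EDN1 there.

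EDN1 was nearly the sole endothelin ligand, with at least 99.1% of the summed FPKM of EDN1, EDN2 and EDN3 in every library. Its receptor EDNRA had 5.47 FPKM in treated T24 and 5.43 FPKM in untreated T24, and 4.32 FPKM in treated 5637 and 5.64 FPKM in untreated 5637. The converting enzyme ECE1, which cuts the precursor to the active peptide, had 91.5 and 83.1 FPKM in treated and untreated T24, and 44.8 and 44.7 FPKM in treated and untreated 5637. Of the 8 other genes of the endothelin system, 3 were compared in each line and 0 passed 0.5. Among all genes compared, 2.23% were lower and 1.03% higher in T24, and 1.11% lower and 1.01% higher in 5637. With 3 genes, a count of 0 is near these shares, and nothing is read from it.

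S1PR1 (ENSG00000170989, chr1:101236865-101243713), a receptor for S1P that couples to Gi, had 0.927 FPKM in treated T24 and 2.99 FPKM in untreated T24. In 5637 it had 2.10 FPKM in treated cells and 2.36 FPKM in untreated cells. The differences were -1.05 in T24, the 29th lowest of all genes and the 9th lowest without exon-sharing genes, and -0.11 in 5637. These are low levels, of about 70 read pairs in treated T24 and 177 in untreated T24, and the treated value is below 1 FPKM.

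S1PR1 was the 3rd most abundant of the 5 S1P receptors in treated T24 and the most abundant in untreated T24, with 18.9% of their sum in treated cells and 46.7% in untreated cells. S1PR5 was first in treated T24 at 1.80 FPKM, against 1.52 FPKM in untreated T24. S1PR3 had 1.52 FPKM in treated T24 and 1.28 FPKM in untreated T24, so both were slightly above their untreated values. S1PR2, in the same sum, shares exons with DNMT1, and its level is uncertain. In 5637, S1PR3 was first, and S1PR1 had 25.5% of the sum in treated cells and 28.9% in untreated cells.

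SPHK1, the kinase that makes S1P from sphingosine, had 22.2 FPKM in treated T24 and 27.1 FPKM in untreated T24, and 12.2 FPKM in treated 5637 and 11.5 FPKM in untreated 5637. Its differences were -0.28 in T24 and 0.08 in 5637. It made up 76.7% of the summed FPKM of the 2 sphingosine kinase genes in treated T24 and 76.2% in untreated T24, since SPHK2 was also lower in treated T24, at 6.74 FPKM against 8.49 FPKM in untreated T24. Exons of SPHK1 overlap those of PRPSAP1 on the opposite strand, which had 15.8 to 17.9 FPKM, and this library kit does not mark strand, so reads from the overlap cannot be assigned by strand. The same holds for SPHK2, whose exons overlap those of RPL18, at 183 to 230 FPKM. The SPHK2 level and the family share are thus uncertain.

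Of the 17 other genes for S1P receptors and enzymes, 10 were compared in T24, with 0 past 0.5 and a median of 0.15, and 11 in 5637, with 1 lower and a median of 0.070. The gene lower in 5637 was PLPP2, a phosphatase of lipid phosphates, at 23.5 FPKM in treated cells and 35.9 FPKM in untreated cells (difference -0.59). In T24, PLPP2 had 6.22 FPKM in treated cells and 6.33 FPKM in untreated cells.

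P2RY2 (ENSG00000175591, chr11:73218298-73236352), the receptor for extracellular ATP and UTP that couples to Gq, had 1.30 FPKM in treated T24 and 2.13 FPKM in untreated T24. In 5637 it had 7.24 FPKM in treated cells and 10.996 FPKM in untreated cells. The treated library was lower in both lines, with differences of -0.44 in T24, ranked 347th from the lowest, and -0.54 in 5637, ranked 112th. These values stand for about 90 and 115 read pairs in treated and untreated T24, and 466 and 853 in treated and untreated 5637.

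Among the 8 P2Y nucleotide receptors, P2RY2 was the most abundant in 5637, with 52.2% of their sum in treated cells and 60.7% in untreated cells. In T24 it had 23.1% in treated cells, behind P2RY11, and 38.9% in untreated cells, where it was first. P2RY11 was the purinergic gene above 0.5 in T24, at 2.90 FPKM in treated cells and 1.71 FPKM in untreated cells (difference 0.52). It shares exons with PPAN and the read-through gene PPAN-P2RY11, which had 4.20 FPKM in treated T24 and 6.71 FPKM in untreated T24, so the division of reads between them is uncertain. Of the 28 other purinergic genes, 8 were compared in T24 and 7 in 5637, with medians of -0.020 and -0.0064, and P2RY11 in T24 was the only one past 0.5 in either line.

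The protease-activated receptors F2R and F2RL1 were among the most abundant of the 10 genes in both lines. F2R, cleaved and activated by thrombin, had 27.6 FPKM in treated T24 and 29.3 FPKM in untreated T24, and 17.8 FPKM in treated 5637 and 15.2 FPKM in untreated 5637. F2RL1, activated by trypsin-like proteases and highest of the 10 in 5637, had 32.7 FPKM in treated T24 and 27.0 FPKM in untreated T24, and 53.1 FPKM in treated 5637 and 51.2 FPKM in untreated 5637. F2RL1 was the only 1 of the 10 genes that was above its untreated value in both lines, by 0.27 in T24 and 0.05 in 5637, although with median-ratio scaling the 5637 difference was -0.012. Of their joint family, the other 2 receptors stayed below 1 FPKM in every library.

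Within the list of 12 other genes around these receptors, 7 were compared in T24, with 1 lower, and 9 in 5637, with 0 past 0.5, and the medians were -0.12 and -0.17. The lower gene was F3, tissue factor, which starts the coagulation cascade that yields thrombin. F3 had 22.8 FPKM in treated T24 and 45.2 FPKM in untreated T24, against 65.7 FPKM in treated 5637 and 58.3 FPKM in untreated 5637, which are differences of -0.96 and 0.17.

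RAPGEF3 (ENSG00000079337, chr12:47734367-47771040, minus strand) encodes Epac1, an exchange factor that loads RAP1 with GTP when it binds cyclic AMP. It had 3.24 FPKM in treated T24 and 6.20 FPKM in untreated T24, and 2.87 FPKM in treated 5637 and 4.42 FPKM in untreated 5637. Both treated values were below both untreated values. The differences were -0.76 in T24, the 74th lowest, and -0.49 in 5637, the 158th lowest. RAPGEF3 made up at least 89.8% of the sum of the 2 Epac genes in every library, as RAPGEF4 did not exceed 0.330 FPKM.

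Exons of RAPGEF3 overlap SLC48A1 on the opposite strand, which had 7.07 FPKM in treated T24 and 8.46 FPKM in untreated T24, and 4.73 FPKM in treated 5637 and 3.61 FPKM in untreated 5637. In 5637, SLC48A1 was thus higher in the treated library while RAPGEF3 was lower, and in T24 both were lower in the treated library. As for SPHK1, reads from the overlap cannot be assigned by strand, and their part in the RAPGEF3 differences was not tested. Of the 35 other genes for cyclic AMP and RAP1 signalling, 23 were compared in T24 and 26 in 5637, with 0 past 0.5 in either line and medians of 0.091 and -0.030. RAP1A, a RAP1 gene, had 8.13 FPKM in treated T24 and 6.32 FPKM in untreated T24, and 13.5 FPKM in treated 5637 and 9.28 FPKM in untreated 5637, so it was higher in both treated libraries, by 0.32 and 0.499. RAP1B, the more abundant RAP1 gene, had 38.5 and 37.8 FPKM in treated and untreated T24. In 5637 RAP1B had 42.7 and 37.7 FPKM in treated and untreated cells. Its differences were smaller, at 0.026 in T24 and 0.175 in 5637.

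**Figure D3:**
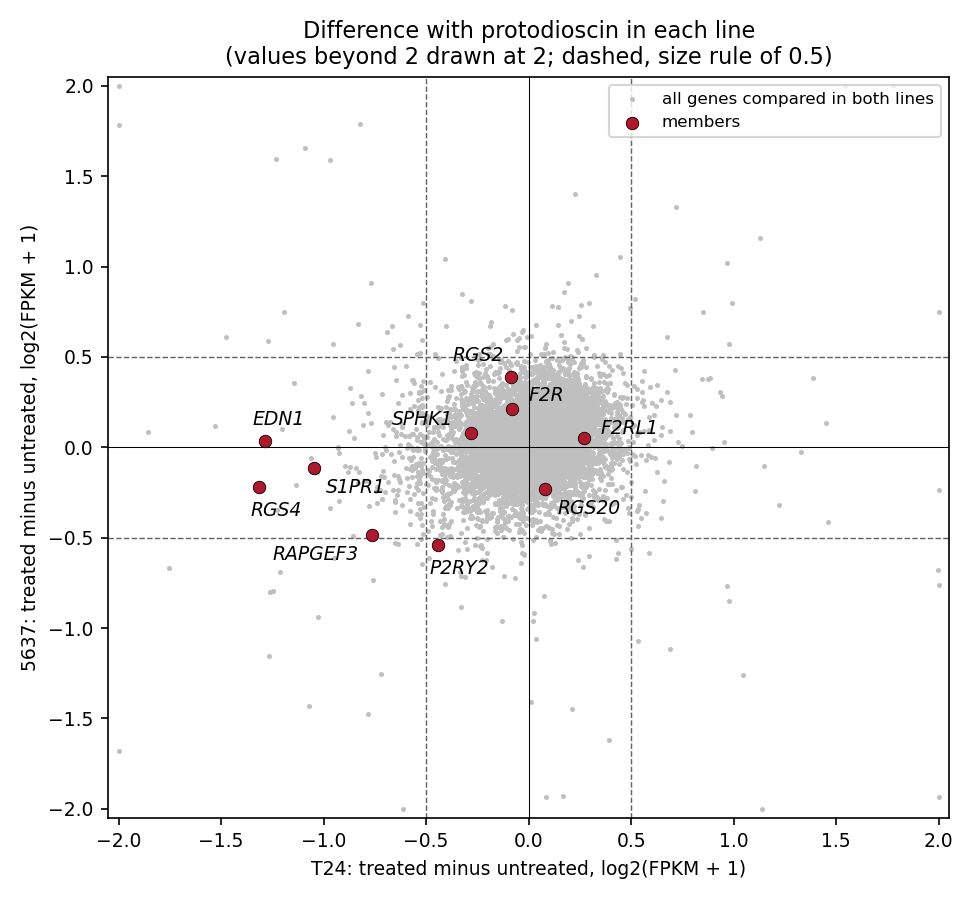
Difference between treated and untreated cells in log2(FPKM + 1), T24 on the x axis and 5637 on the y axis, for the 10 genes (red) and all genes compared in both lines (grey, values beyond 2 drawn at 2); dashed lines mark 0.5. RGS4, EDN1 and S1PR1 are beyond -1 in T24 and within 0.22 of 0 in 5637, and RAPGEF3 and P2RY2 are at the lower left.

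Across both lines, 4 of the 10 genes were below their untreated value in T24 and in 5637 (RGS4, S1PR1, P2RY2 and RAPGEF3), 1 was above it in both (F2RL1) and 5 differed in sign, with the exceptions under other scalings given above for EDN1 and F2RL1. The shares of all genes with the same or opposite sign were not computed. Nothing is read from these counts of sign, because the genes were selected on these differences. Of the 25 G-protein subunit genes, 18 were compared in T24, with 1 lower and a median of 0.017, and 19 in 5637, with 0 past 0.5 and a median of 0.033. The lower gene was GNB3, a beta subunit at a low level, with 0.823 FPKM in treated T24 and 1.58 FPKM in untreated T24, and 0.247 FPKM in treated 5637 and 0.428 FPKM in untreated 5637. GNB3 was only just inside the limit in T24, at -0.5005. Its exons overlap those of CDCA3 on the opposite strand, at 34.9 FPKM in treated T24 and 35.3 FPKM in untreated T24.

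The stimulatory alpha subunit gene GNAS had 589 FPKM in treated T24 and 593 FPKM in untreated T24, and 464 FPKM in treated 5637 and 482 FPKM in untreated 5637. Of the 7 receptor kinase and arrestin genes, which switch off activated receptors, 6 were compared in T24 and 7 in 5637, with 0 past 0.5 and medians of 0.10 and 0.00012. Of the 17 genes for phospholipase C signalling and lysophosphatidic acid receptors, 11 were compared in T24 and 12 in 5637, with 0 past 0.5 and medians of 0.0011 and -0.053. Over all 9 lists, 2 of 91 genes compared in T24 were lower and 1 was higher, and 1 of 100 in 5637 was lower and 0 higher. Over all genes compared, the shares were 2.23% lower and 1.03% higher in T24 and 1.11% lower and 1.01% higher in 5637, so the lists were near the background. The medians were 0.032 in T24 and -0.0070 in 5637, beside 0.025 and 0.043 for all genes.

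**Figure D4:**
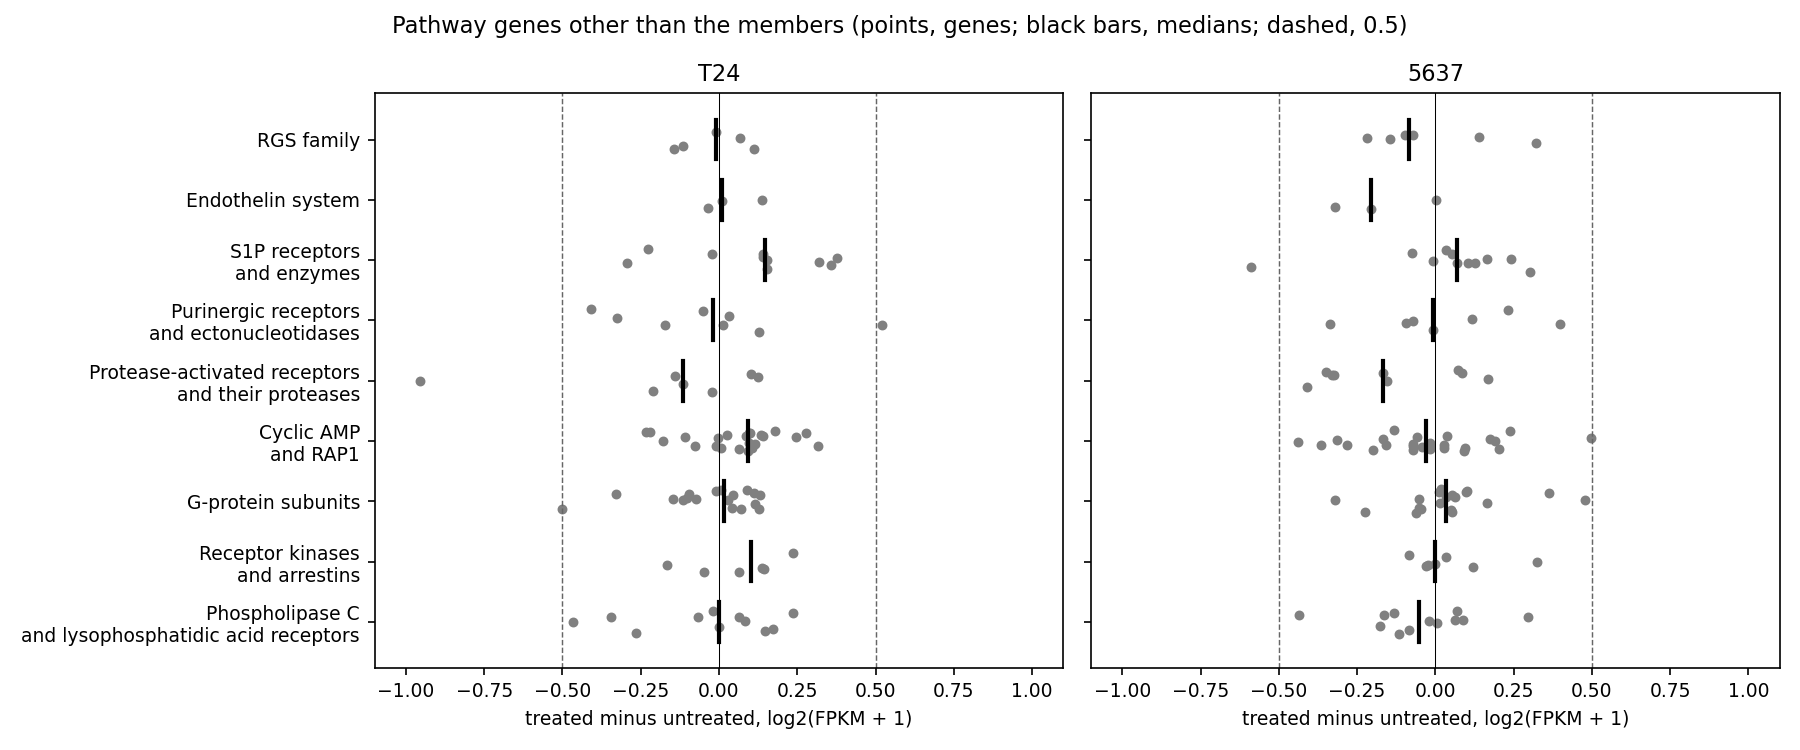
Difference between treated and untreated cells in log2(FPKM + 1) for the genes of 9 pathway lists without the 10 genes above, T24 on the left and 5637 on the right; points are genes, black bars list medians and dashed lines 0.5. Nearly all points are within 0.5 of 0, apart from F3, GNB3 and P2RY11 in T24 and PLPP2 in 5637.

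The treatment term over both lines was tested for the pathway lists with limma on log2(FPKM + 1), with cell line and treatment as terms. Of 102 list genes in the fit, 0 were called at a Benjamini-Hochberg adjusted p below 0.05, where 0% of all 12893 genes were called. The lowest adjusted p was 0.482 among the list genes and 0.0784 among all genes. At an unadjusted p below 0.05 there were 13 list genes, 12.7% of them, and 1227 of all genes, 9.52%. The fit had 1 residual degree of freedom and 4.99 prior degrees of freedom. Its error therefore rests mostly on how far the lines differed in their response pooled over genes, and does not measure the spread between cultures.

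The level difference between the lines was computed in the same fit. Its error comes from the difference between the responses of T24 and 5637, for each gene and, with more weight, pooled over all genes as the prior variance. RGS4, EDN1, S1PR1, P2RY2 and RAPGEF3 were selected on their responses, so their line differences are given without a test. Of the 5 other genes, 3 were called higher in T24, where 35.1% of all genes were, and 1 was called higher in 5637, where 33.9% of all genes were. SPHK1 was higher in T24 by 0.99 ± 0.102 (SE, limma, Benjamini-Hochberg adjusted p = 0.000306), F2R by 0.75 ± 0.0903 (limma adjusted p = 0.000578) and RGS20 by 0.69 ± 0.112 (limma adjusted p = 0.00211). For F2RL1, T24 minus 5637 was -0.79 ± 0.0759 (SE, limma adjusted p = 0.000229). RGS2 was not called, with a 95% interval of -0.15 to 0.52 (limma adjusted p = 0.269). Of all genes, 68.9% were called in either direction between the lines.

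The 2 protease-activated receptors thus lay in opposite order, with F2R higher in T24 and F2RL1 higher in 5637. F2RL1 made up 53.6% of the family's sum in treated T24 and 47.1% in untreated T24, and 74.8% in treated 5637 and 77.1% in untreated 5637.

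Among the 5 genes without a test, RGS4 had mean log2(FPKM + 1) of 4.20 in T24 and 1.24 in 5637, and T24 minus 5637 was 2.41 between the treated libraries and 3.50 between the untreated libraries. P2RY2 ran the other way, with -1.84 between the treated and -1.94 between the untreated libraries. For both genes, either T24 library was thus on the same side of either 5637 library. For RAPGEF3 the difference was 0.13 between the treated and 0.41 between the untreated libraries. For EDN1, T24 minus 5637 was -0.66 between the treated libraries and 0.65 between the untreated libraries, and for S1PR1 it was -0.69 and 0.25. EDN1 and S1PR1 were therefore lower in T24 than in 5637 when treated and higher when untreated.

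**Figure D5:**
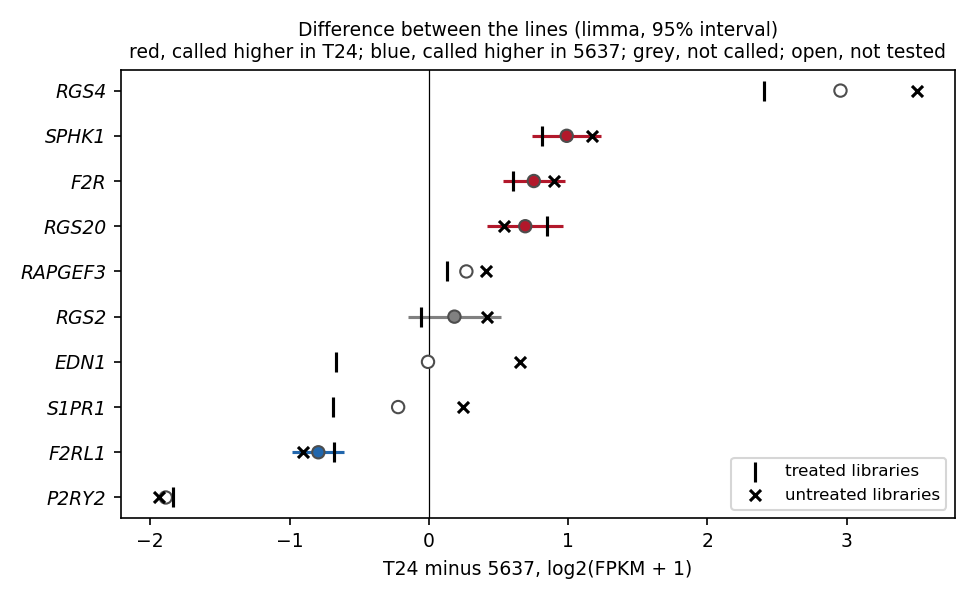
T24 minus 5637 in log2(FPKM + 1) for each of the 10 genes: points are the limma coefficient, bars its 95% interval for the 5 tested genes, open points the 5 genes without a test, vertical ticks the difference between the treated libraries and crosses that between the untreated libraries. RGS4 is at 2.96 and P2RY2 at -1.89, and for EDN1 and S1PR1 tick and cross are on opposite sides of 0.

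The genes whose values ran most like those of RGS4, EDN1, S1PR1, P2RY2 and RAPGEF3 were taken from the Euclidean distance between log2(FPKM + 1) profiles over the 4 libraries, each centred on its own mean, among 10370 genes. Nearest to RGS4 was ANKRD1, a gene for a nuclear ankyrin-repeat protein, at a distance of 0.328 where the median gene was at 3.11. ANKRD1 had 20.0 FPKM in treated T24 and 38.9 FPKM in untreated T24, and 2.97 and 2.96 FPKM in treated and untreated 5637. IGFBP5, a binding protein for insulin-like growth factors, and C5orf46 followed, at 0.477 and 0.565. IGFBP5 had 4.18 FPKM in treated T24 and 9.46 FPKM in untreated T24, and at most 0.406 FPKM in 5637.

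Nearest to EDN1 were MRPS23, a gene of the mitochondrial ribosome, at 0.235, S1PR1 at 0.291 and NUP37, a gene of the nuclear pore, at 0.377 (median gene 1.06). MRPS23 had 4.26 FPKM in treated T24 and 14.2 FPKM in untreated T24, and 7.45 and 6.79 FPKM in treated and untreated 5637. EDN1 and S1PR1, both chosen for their decrease in T24, were thus close to each other over all 4 libraries. Nearest to S1PR1 were MYEOV at 0.172, the small nuclear RNA pseudogene RNU6-26P at 0.207 and DMTN, an actin-bundling protein gene, at 0.241 (median gene 0.947). RNU6-26P was at a low level, with 0.446 and 1.65 FPKM in treated and untreated T24, and 1.46 and 1.65 FPKM in treated and untreated 5637. Its profile is therefore uncertain.

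Nearest to P2RY2 were TPD52L1 at 0.130, UNC13D, a gene of granule secretion, at 0.215 and IQANK1 at 0.235 (median gene 1.99). UNC13D had 18.0 FPKM in treated T24 and 28.2 FPKM in untreated T24, and 81.3 and 101 FPKM in treated and untreated 5637. Nearest to RAPGEF3 were EVA1A at 0.195, PTGER4 at 0.197 and DLGAP1-AS1 at 0.202 (median gene 0.864). PTGER4 is a prostaglandin receptor that raises cyclic AMP, and it had 3.94 FPKM in treated T24 and 6.76 FPKM in untreated T24, and 3.07 and 4.22 FPKM in treated and untreated 5637. Exons of IGFBP5, NUP37, TPD52L1 and IQANK1 overlap those of another gene on the opposite strand, so reads from the overlap cannot be assigned by strand. With 4 libraries, nearness describes these profiles only.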

How the data were processed

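Total RNA was extracted with a Qiagen kit and sequenced from TruSeq RNA v2 libraries on a HiSeq2500 as paired-end reads of 150 bases, per the labels' protocols. The authors deposited FPKM per gene. Per the submitters' processing notes, the tools were Trimmomatic, HISAT2 and StringTie with build GRCh38. Their versions and settings and the annotation used were not given in the sources used here. Values of this unit allow for length and library size but not for composition, and StringTie estimates how reads split between overlapping transcripts.

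Values were analysed as log2(FPKM + 1), which understates differences of low genes (Python 3.11.15, pandas 2.3.3). Within a line, genes reaching 1 FPKM in 1 or both libraries were compared and differences of 0.5 were counted, with no test. Line and treatment effects came from limma 3.58.1 (R 4.3.3, trended prior variance, cell line and treatment as terms, genes reaching 1 FPKM in 2 or more of 4 libraries, Benjamini-Hochberg adjustment over all genes, adjusted p below 0.05). The script was tested on simulated data. The labels do not say whether cultures were independent, so p-values measure the spread between these libraries only. GENCODE 29 and bedtools 2.31.1 gave positions and exon overlap. Read pairs were estimated from FPKM, transcript length and the spacing of low values; whole counts were not recovered, so no count test was run.

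The 10 genes and the pathway lists were chosen with earlier results of these data known. The text names all 10 genes, the list genes past 0.5 in either line, abundant list genes as levels, and the 3 genes nearest in profile to each of 5 of the 10. FN1, VIM, CDH2, ZEB1, RAP1A, RAP1B, SPHK2, S1PR2, S1PR3, S1PR5, KRT5, KRT7, KRT8, KRT18, EPCAM, CDH1, TP63, GATA3, PECAM1, VWF, CDH5, ERG, TIE1, RAPGEF4 and genes overlapping named genes were named for context after their values were seen. Alternatives were other pseudocounts, filters, scalings (TPM, median-ratio, quantile), a size rule of 1, leaving out exon-sharing genes or 1 library, a constant prior variance and cell line as the only term.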

Additional observations from a re-analysis of the deposited data

Results flagged for a closer look

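For 5 of the 10 genes the treated library was below the untreated one in 1 line and above it in the other. T24 minus 5637 of these differences in log2(FPKM + 1) was -1.32 for EDN1 (-1.28 in T24, 0.03 in 5637, the second below 0 with 3 other scalings), -0.473 for RGS2 (-0.09, 0.39), -0.358 for SPHK1 (-0.28, 0.08), -0.295 for F2R (-0.08, 0.21) and 0.307 for RGS20 (0.08, -0.23). Among the named pathway genes, it was -1.12 for F3 (-0.96 in T24, 0.17 in 5637) and 0.617 for P2RY11 (0.52, -0.09). These differences between the lines were not tested, since 1 library per group leaves no degree of freedom for them, and the doses differed between the lines. The share of all genes differing in sign was not computed. From estimated read pairs alone, 95% intervals of the log2 ratio without pseudocount included 0 for RGS2 (-0.43 to 0.23) and RGS20 (-0.13 to 0.30) in T24. In 5637 they included 0 for SPHK1 (-0.069 to 0.24) and EDN1 (-0.24 to 0.32). For F2R in T24 the interval ended near 0 (-0.16 to -0.0048). The opposite signs are therefore uncertain.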

How the results depend on the processing

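Of the 10 genes, 4 were lower by 0.5 or more in T24 in the reported analysis, 2 with a pseudocount of 5 (RGS4 at -1.08 and EDN1 at -0.69), and within 1.5 times of 4 in the other alternatives. In 5637 the count was 1; it was 2 with a pseudocount of 0.1 and with TPM, median-ratio or quantile scaling, and 0 with a pseudocount of 5 and with a size rule of 1. Pathway list genes past 0.5 numbered 4; they were 11 with a pseudocount of 0.1, 9 with TPM scaling, 2 with a pseudocount of 5, 2 with a filter at 5 FPKM and 0 with a size rule of 1. The treatment term called 0 genes, and 2 with a pseudocount of 0.1 or without exon-sharing genes. Without the cell line term the treatment term called 0 genes. The line term called 8886 genes. With 3 libraries the treatment term cannot be kept, so fits without 1 library had cell line as the only term and assumed that the lone library varied like the others. That fit called 8376 genes with all 4 libraries and 5624 to 7097 without 1 library, with 5624 without untreated 5637 and 5779 without treated 5637. SPHK1, F2R, RGS20 and F2RL1 kept their calls in all alternatives. The EDN1 line coefficient of -0.0055 changed sign with a pseudocount of 5 (0.032), TPM (0.041) and quantile scaling (0.050). Over the fits without 1 library it ranged from -0.65 to 0.64, S1PR1 from -0.74 to 0.30, RAPGEF3 from -0.11 to 0.65 and RGS2 from -0.0095 to 0.38, and treatment is mixed into these line differences. The causes were not tested. S1PR1, P2RY2 and RAPGEF3 were at low levels in T24, where differences moved with the pseudocount. The EDN1 difference in T24 moved too, to -1.61 with a pseudocount of 0.1 and -0.69 with a pseudocount of 5. That of RGS4 in T24 was -1.08 with a pseudocount of 5. In 5637 the differences of RGS4, RAPGEF3, P2RY2, RGS2 and RGS20 moved with at least 1 of these pseudocounts. Each group had 1 library, so no pairing by replicate number exists, and the reported fit compares treatment within each line.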
